A study of Mus musculus with 8 samples.

Results

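The Btg and Tob genes of the mouse encode a small family of antiproliferative proteins, here Btg1, Btg2, Btg3, Tob1 and Tob2. They were followed in NIH3T3 cells, fibroblasts of a mouse embryo that grow without limit, which were arrested by low serum and then given serum with or without cordycepin. Members were chosen by name alone: every probe whose gene name in the array files was one of these 5 symbols, which gave 7 of 55681 non-control probes. Of the 7 probes, 6 were measured well enough to be tested, at least 1 for each gene, among 30870 probes tested in all.

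All cells were grown in 10% newborn bovine serum on 15 cm plates and starved in 0.5% serum for 24 h. The serum group of 3 arrays received 0.1% DMSO, the solvent, and was stimulated with serum for 30 min. The cordycepin group of 3 arrays received 20 µM cordycepin in 0.1% DMSO, with 90 min in the sample labels, and serum for 30 min. The labels' protocol starts the serum before these 90 min ended, while the study's text starts it after them. The no serum group of 2 arrays received DMSO and was not stimulated. Cordycepin is 3′ deoxyadenosine, an adenosine analogue whose triphosphate ends the RNA chain when poly(A) tails are added to mRNA. The study's text cites work in which it did not terminate total pre-mRNA synthesis in intact cells, although transcription of specific mRNAs was inhibited. Since cordycepin was never given without serum, its effect was measured in serum-treated cells only, and all cells came from 1 cell line.

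Proteins of this family share an N-terminal domain through which they bind the deadenylases of the CCR4-NOT complex, the enzymes that shorten the poly(A) tails of mRNAs. Tob1 and Tob2 also carry motifs for cytoplasmic poly(A) binding protein, and so bring the deadenylase to polyadenylated mRNA. Btg1 and Btg2 bind the arginine methyltransferase Prmt1. Overexpression of the family members slows the passage of fibroblasts from G1 into S phase, and Btg2 is itself an immediate early gene, first cloned as TIS21 among the sequences that the phorbol ester TPA induces in 3T3 cells.

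For the 2 genes with probes that changed, the RefSeq promoter windows are shown (build GRCm38.p6, from 250 bases before to 50 bases after the start site, 5′ to 3′ on the gene's strand), since transcription factors that act in the serum response are known to bind at promoters. The Btg2 window lies at chr1:134079106-134079405 on the minus strand and the Btg1 window at chr10:96616751-96617050 on the plus strand. Capitals mark TGACGTCA, the cyclic AMP response element, in Btg2 and TGTTTAC, which is the forkhead motif GTAAACA read on the opposite strand, in Btg1.
Btg2: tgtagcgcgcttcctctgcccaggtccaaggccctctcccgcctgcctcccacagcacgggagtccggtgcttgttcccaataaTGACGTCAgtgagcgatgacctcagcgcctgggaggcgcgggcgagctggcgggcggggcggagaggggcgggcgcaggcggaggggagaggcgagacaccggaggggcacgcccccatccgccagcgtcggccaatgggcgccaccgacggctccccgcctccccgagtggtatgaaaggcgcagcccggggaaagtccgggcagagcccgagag
Btg1: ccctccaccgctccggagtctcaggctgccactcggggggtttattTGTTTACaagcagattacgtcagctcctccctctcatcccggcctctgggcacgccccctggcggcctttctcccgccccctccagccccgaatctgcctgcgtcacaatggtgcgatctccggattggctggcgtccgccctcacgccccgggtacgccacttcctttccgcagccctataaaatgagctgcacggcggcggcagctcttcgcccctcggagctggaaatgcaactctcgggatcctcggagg

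The element TGACGTCA began 166 bases before the Btg2 start site and was held by 1.79% of the 32851 promoter windows of the same length. The forkhead motif in the Btg1 window began 204 bases before the start site and was held by 3.65% of windows. Both strands were searched for these motifs and for the CArG box, the binding site of serum response factor, TGANTCA (AP-1), CACGTG (E box), GGGCGG (Sp1), GGAAGT (Ets) and the p53 site by its consensus. GGGCGG matched 3 times in the Btg2 window, 2 times in the Btg1 window, 3 times in the Tob1 window and 2 times in each of the Tob2 window and the first of 2 Btg3 windows, and was held by 35.7% of all windows. In the Btg2 window the matches that began 115 and 110 bases before the start site shared 1 base, and none overlapped another motif. No member window held the letters of a CArG box, which 1.63% of all windows did.

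All 8 arrays lay on 1 slide. The 75th percentile of the processed signal, to which each array was scaled, lay between 350.5 and 802.2, between 51.1 and 57.1% of probes were well above background, and no spot was saturated. All 8 fibroblast markers on the array, such as the collagen gene Col1a1, were well above background on 8 arrays. Of 8 markers of other cell types, 3 were measured, the T cell gene Cd3e, the keratin gene Krt8 and the endothelial gene Pecam1. None of these was called in any comparison, where 1.73% to 10.5% of all probes were. With cordycepin 2 of 3 were at an unadjusted p under 0.05. Ptprc, Emr1, Epcam, Cdh5 and Alb were not well above background throughout any group, and Cd3e had mean levels from −0.25 to 0.02. The serum check gene Fos rose from a mean level of 0.85 without serum to 5.71 with serum (log2 fold change 4.86 ± 0.29, limma adjusted p = 0.000209). Levels are log2 processed signals minus the log2 of that array's 75th percentile, errors of fold changes are standard errors, and errors of levels are SDs. In a population of cells, fewer cells with a transcript and less transcript per cell cannot be told apart.

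Btg2, which represses cyclin D1 and slows G1 in fibroblasts, was the member that responded to serum. Its level in the 2 arrays without serum was 1.43 and 0.87. In the 3 serum arrays it was 4.64, 4.54 and 4.58, and in the 3 cordycepin arrays 1.29, 1.46 and 1.84. The serum arrays stood apart from all others, while the cordycepin arrays overlapped with those without serum.

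Serum raised Btg2 10.8-fold (log2 fold change 3.43 ± 0.21, adjusted p = 0.000243, limma, with Benjamini-Hochberg adjustment across the 30870 probes). The call required an adjusted p below 0.05 together with a 2-fold or larger change in either direction. On the brightest probe of each gene, 1 of 5 members was called after serum, Btg2, against 1.73% of all probes tested and 0.849% called higher. With cordycepin Btg2 was 8.28-fold lower than with serum alone (log2 fold change −3.05 ± 0.19, adjusted p = 2.93e-05). It was also the sole member of 5 called in this comparison on the brightest probe, against 10.5% of all probes in either direction and 2.87% lower. Only 0.0518% of the probes tested had a more negative log2 fold change than Btg2.

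Against no serum, the cordycepin arrays were 0.38 ± 0.21 higher in Btg2 on the log2 scale (adjusted p = 0.279), with a 95% confidence interval from −0.10 to 0.87. None of the 5 members was called in this comparison on the brightest probe in limma, with 1 at an unadjusted p under 0.05, Btg1, against 9.47% of all probes called. The Btg2 probe lies on chromosome 1 at 135972094 to 135972153 of build mm9, minus strand, from base 2371 of the transcript.

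**Figure D1:**
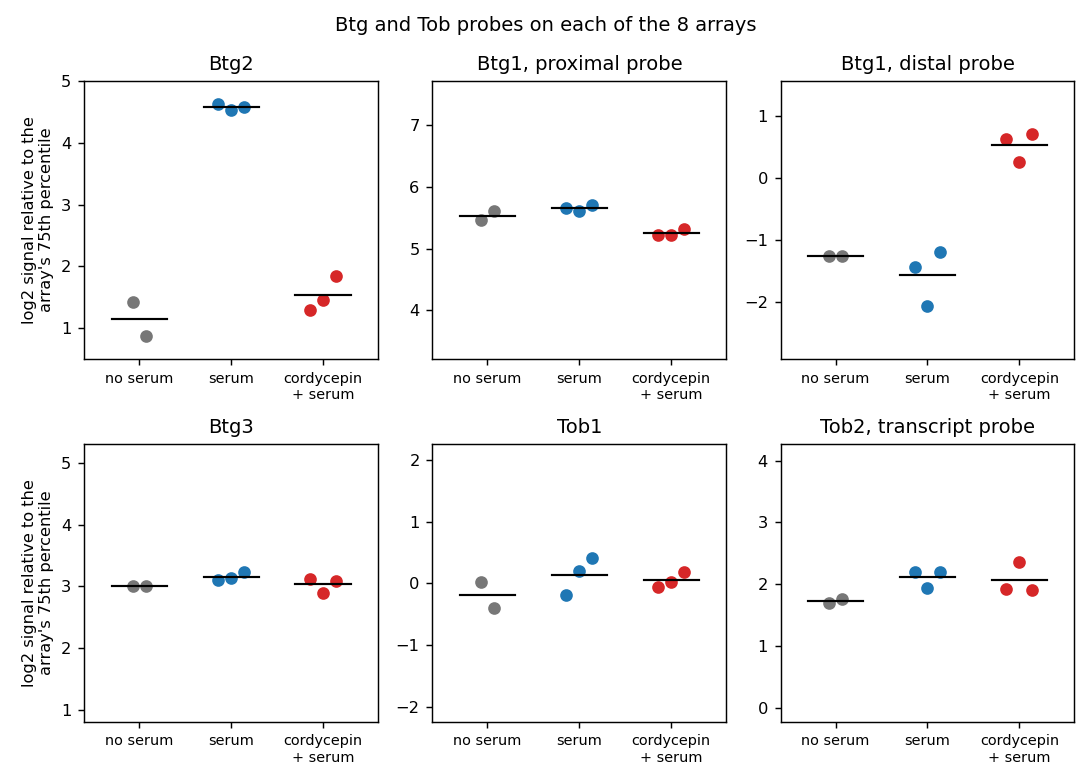
Level of each tested Btg and Tob probe on each of the 8 arrays, as log2 signal relative to the 75th percentile of the array. Points are arrays, lines are group means, and every panel spans the same number of log2 units. Btg2 stood at 4.54 to 4.64 on the serum arrays and at 0.87 to 1.84 on the others, and the distal Btg1 probe was highest on the cordycepin arrays, at 0.27 to 0.71.

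Btg2 was set beside the 6 other TIS genes of the array, Nr4a1, Ifrd1, Egr1, Ptgs2, Zfp36 and Fos, which were found in the same kind of screen. Serum raised 6 of 6, with a median log2 fold change of 2.77 against −0.02 over all probes. With cordycepin 5 of 6 were called lower, with a median log2 fold change of −1.67 against 0.10 over all probes. The orphan nuclear receptor gene Nr4a1 was the one not called, at −0.92 ± 0.24 (adjusted p = 0.0302), under the minimum fold change. With each array centred on the spike-in probes, 4 of the 6 genes were called after serum and 4 with cordycepin. The medians were then 2.40 and −1.69. Standard errors were larger with this centring, for Btg2 with cordycepin 0.50 in place of 0.19.

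Ptgs2, the inducible cyclooxygenase, rose by 2.96 ± 0.19 with serum and was −2.73 ± 0.17 with cordycepin (adjusted p = 3.14e-05). Zfp36, which encodes the mRNA decay factor tristetraprolin, rose by 3.97 ± 0.16 with serum and was −2.05 ± 0.14 with cordycepin (adjusted p = 4.77e-05). Ifrd1, a transcriptional coregulator also known as TIS7, rose by 1.82 ± 0.15 and was −1.71 ± 0.14 with cordycepin (adjusted p = 8.34e-05).

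Against no serum, Fos stayed 3.23 ± 0.29 higher on the cordycepin arrays (adjusted p = 0.000228), and Zfp36 and Nr4a1 were also called higher, where 6.48% of all probes were. With spike-in centring Fos alone of the 6 was called. Ptgs2, Ifrd1, Egr1 and Btg2 were not called there. Whether Btg2 differed from the other TIS genes was not tested.

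**Figure D2:**
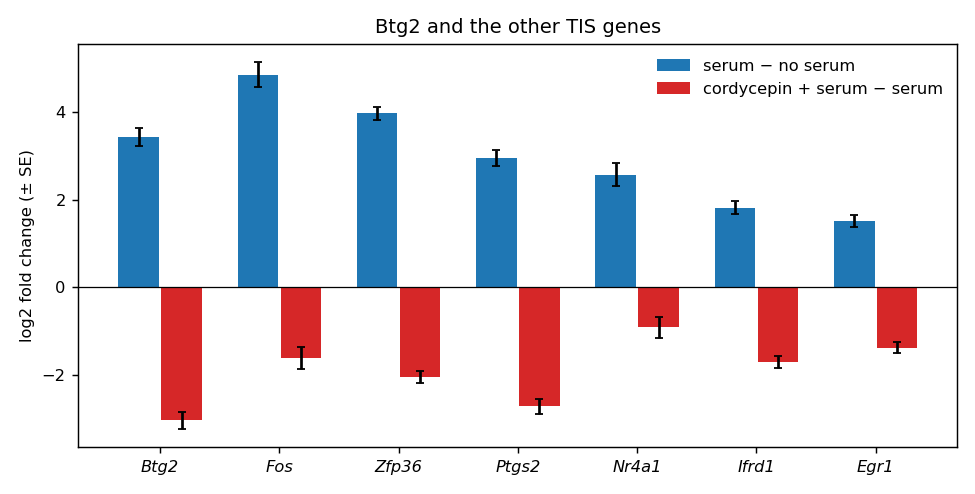
Log2 fold changes of Btg2 and the 6 other TIS genes with serum over no serum (blue) and with cordycepin plus serum over serum (red), with standard errors; both comparisons share the 3 serum arrays. Btg2 had a log2 fold change of 3.43 with serum and −3.05 with cordycepin, and Fos one of 4.86 and −1.62.

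The wider list of 20 immediate early genes shares 4 genes with the TIS list. With serum 18 were called higher, where 0.849% of all probes were, and with cordycepin 15 were called lower, where 2.87% were. The medians were 2.59 and −1.65. All 20 log2 fold changes were positive with serum and negative with cordycepin, the latter with 19 at an adjusted p under 0.05 in limma. With spike-in centring 12 were called higher with serum and 12 lower with cordycepin. Against no serum, 9 of the 20 were called higher on the cordycepin arrays, 3 with spike-in centring, and 1 was called lower, where 2.99% of all probes were, the small GTPase gene Rhob at −1.42 ± 0.28 (adjusted p = 0.011). The steepest falls with cordycepin in this list were Ctgf, a matricellular growth factor, at −2.98 ± 0.44, the zinc finger factor Egr3 at −2.60 ± 0.25 and the MAP kinase phosphatase Dusp1 at −2.44 ± 0.20. The largest rises with serum were those of the AP-1 gene Fosb, at 7.91 ± 0.19, Fos, at 4.86 ± 0.29, and the stress factor Atf3, at 4.70 ± 0.27.

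The 3 genes with an mRNA accession whose centred profile over the 8 arrays lay nearest to that of Btg2, among 17898, were Ptgs2, the ERK phosphatase gene Dusp5 and Rgs16, a regulator of G protein signalling. The root mean square difference was 0.309 for Ptgs2, 0.370 for Dusp5 and 0.446 for Rgs16, with Pearson's r of 0.986, 0.972 and 0.969 over the 8 arrays, which fall into 3 groups. Their log2 fold changes with cordycepin were −2.73, −3.31 and −2.48. For the members with small changes, the nearest profiles were Gpatch8, Faf2 and Dnajc24 for Btg1, Cgrrf1 and Deb1 for Btg3, Zpbp, Glipr1 and Pi15 for Tob1 and Epb4.1l4a, Tmem123 and Prr14 for Tob2.

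Btg1, which is highly expressed in quiescent cells and falls as they enter the cell cycle, had 2 probes whose log2 fold changes with cordycepin were of opposite sign. The proximal probe begins at base 1633 of the transcript (chromosome 10, 96082071 to 96082130 of mm9, plus strand) and is the brighter of both. The distal probe begins at base 4920, 3.29 kb farther along the same transcript (96085358 to 96085417). Both were well above background on all 8 arrays.

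On the proximal probe the level was 5.46 and 5.61 without serum, 5.66, 5.60 and 5.71 with serum, and 5.22, 5.22 and 5.32 with cordycepin. The cordycepin arrays lay below all others, while the serum arrays overlapped with those without serum. The change with cordycepin was −0.41 ± 0.10 (adjusted p = 0.0239), 1.32-fold lower, which passed the p-value but not the minimum fold change. Under 8 of 17 alternatives its adjusted p was above 0.05, at 0.0593 with a replicate block, 0.0579 with slide row as a block, 0.107 with no filter on dim probes, 1.00 with spike-in centring, 0.0631 and 0.0654 without cordycepin replicate 1 and 2, and 0.0841 and 0.0898 without serum replicate 1 and 3. Of all probes, 7.36% were lower at this p-value with no minimum fold change. With serum the proximal probe was at 0.12 ± 0.11 (adjusted p = 0.985), with a 95% confidence interval from −0.13 to 0.38.

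On the distal probe the level was −1.26 on each of the 2 arrays without serum, −1.44, −2.07 and −1.20 with serum, and 0.63, 0.27 and 0.71 with cordycepin. The cordycepin arrays lay above all others. The distal probe was 4.31-fold higher with cordycepin than with serum alone (log2 fold change 2.11 ± 0.23, adjusted p = 0.000363) and was called, where 7.64% of all probes were called higher. Against no serum it was 1.80 ± 0.25 higher (adjusted p = 0.00216), where 6.48% of all probes were called higher. With spike-in centring this last change was 1.41 with an adjusted p of 0.170 and was not called. With serum the distal probe was at −0.31 ± 0.25 (adjusted p = 0.950).

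Within each array, the distal minus the proximal log2 signal was −4.59, −4.95 and −4.61 with cordycepin, −7.11, −7.67 and −6.90 with serum, and −6.72 and −6.87 without serum. The size of this difference depends on how each probe hybridises, so that only its shift between groups can be read. The shift from serum to cordycepin was 2.51, and the groups did not overlap. In an exact two-sided permutation test over the 20 arrangements of 3 against 3 arrays p was 0.1, the smallest p this design allows. Taken as the mean of both probes, the change of Btg1 with cordycepin was 0.85 (limma adjusted p = 0.00462) in place of −0.41.

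**Figure D3:**
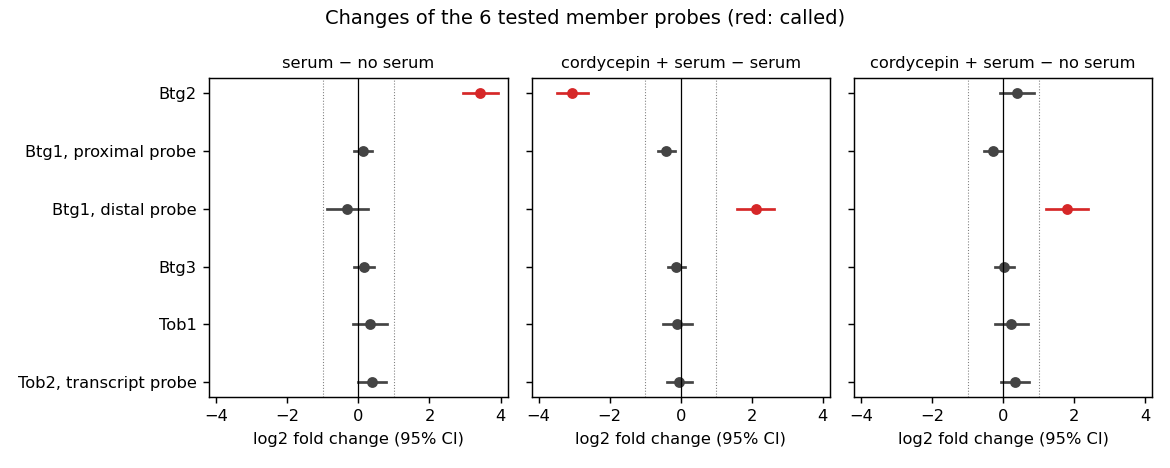
Log2 fold changes with 95% confidence intervals of the 6 tested member probes in the 3 comparisons, which share arrays. Red marks called probes and dotted lines the minimum log2 fold change of 1. Btg2 was called in both comparisons with the serum arrays, and the distal Btg1 probe in both comparisons of the cordycepin arrays, at 2.11 and 1.80.

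Long intergenic non-coding RNAs (lincRNAs) have probes near the probes of 2 of the members on the array. Downstream of Btg1 and on its strand, there were 10 such probes in 4 annotated loci, at 12.0 to 18.4 kb beyond the start of the distal probe. Of the 9 tested, 9 were called higher with cordycepin than with serum alone, with log2 fold changes from 1.22 to 4.53. Over all lincRNA probes tested, 17.9% were called higher. The filter let 4 of the 9 pass through the cordycepin arrays alone, and for these a rise was a condition of being tested.

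The 3 probes well above background on all 8 arrays were called higher too, in a set of lincRNA probes of which 10.7% were called higher. The farthest of these, at 18.4 kb (chromosome 10, 96103807 to 96103866 of mm9), had a level of −3.13 and −3.85 without serum, −4.14, −4.68 and −3.80 with serum, and 0.39, 0.17 and 0.41 with cordycepin. It was 23.1-fold higher with cordycepin than with serum (log2 fold change 4.53 ± 0.26, adjusted p = 2.19e-05). The other two were higher by 4.13 ± 0.31 (adjusted p = 7.26e-05) and 1.22 ± 0.15 (adjusted p = 0.000686). The cordycepin arrays did not overlap with any other array on these probes.

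For 4 of the tested probes no serum array was well above background, and the rise is given as a bound: at least 7.33-fold, 16.3-fold, 4.22-fold and 4.28-fold higher. The value of 4.22 equals the plain fold change, since no serum array lay under its floor there, and is thus an estimate. After serum none of the 9 was called in limma, with 3 at an unadjusted p under 0.05, and log2 fold changes lay between −1.10 and 0.12, where 1.06% of lincRNA probes were called higher. Against no serum 8 of 9 were called higher on the cordycepin arrays, where 14.8% of lincRNA probes were. For the 4 probes tested through the cordycepin arrays alone, a rise was a condition here too. The 3 probes well above background on all 8 arrays were among those called. With normexp background correction 5 of the 9 were called higher with cordycepin.

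On the opposite strand of Btg1, between its 2 mRNA probes, lay 5 lincRNA probes of 1 locus, 2 of them tested. The one well above background on all arrays had a mean level of 1.60 with serum and 1.62 with cordycepin, a change of 0.02 ± 0.13 (adjusted p = 0.941). The other passed the filter through the cordycepin arrays alone, with 1 of 3 serum arrays and 3 of 3 cordycepin arrays well above background, and its value of 1.32 ± 0.37 is a description.

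**Figure D4:**
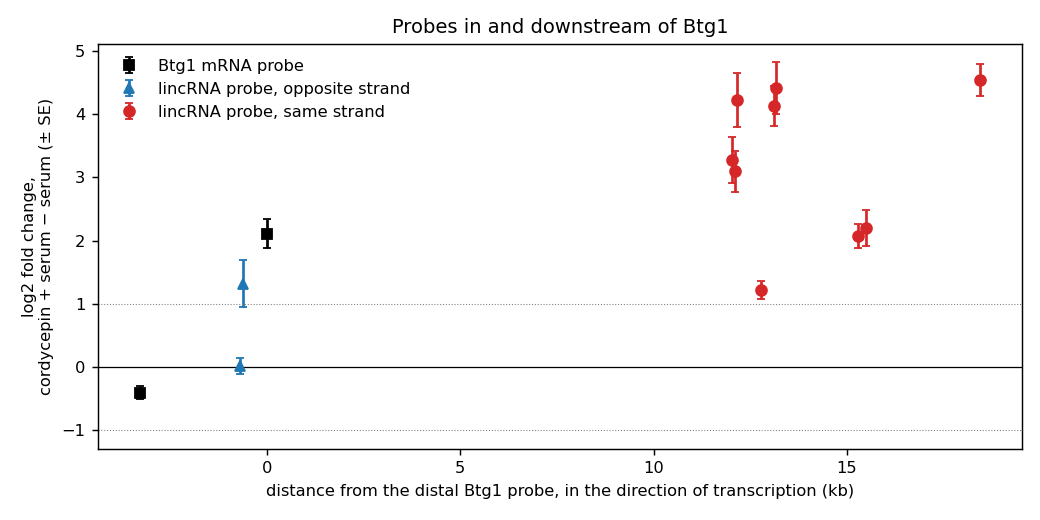
Log2 fold change with cordycepin plus serum over serum, with standard errors, against the distance from the distal Btg1 probe in the direction of transcription, in kb. Squares are Btg1 mRNA probes, circles lincRNA probes on the same strand and triangles lincRNA probes on the opposite strand. The proximal Btg1 probe lay at −0.41, the distal one at 2.11 and the 9 downstream same-strand probes between 1.22 and 4.53.

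Downstream of Btg2 and on its strand, 3 lincRNA probes of 1 locus lay 15.3 to 15.5 kb from the Btg2 probe, and 2 were tested, both through the cordycepin arrays alone. A rise was thus a condition of being tested, and the values are a description. One was 3.41-fold higher with cordycepin, where bound and plain fold change were the same, and the other was at 0.68 ± 0.22. The Btg2 mRNA probe itself was at −3.05 in the same comparison. Another 3 probes on the same strand, 21.0 to 21.4 kb upstream of the Btg2 probe, were not well above background on any array. Near the Tob1 and Tob2 probes the array held no lincRNA probe within 50 kb. The search went by probe position. Since the files place the Btg3 probe on chromosome 17, the surroundings of the Btg3 gene on chromosome 16 were not searched.

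Tob1, which brings CCR4-NOT to mRNAs through poly(A) binding protein and is phosphorylated by ERK after serum, had a level of 0.02 and −0.39 without serum, −0.18, 0.19 and 0.42 with serum, and −0.06, 0.02 and 0.18 with cordycepin. The 3 groups overlapped. Its log2 fold change was 0.33 ± 0.20 with serum (adjusted p = 0.789, 95% confidence interval −0.14 to 0.80) and −0.09 ± 0.18 with cordycepin (adjusted p = 0.755, −0.51 to 0.32). The Tob1 probe lies on chromosome 11 at 94075956 to 94076015 of mm9.

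Tob2, its closest relative, had 2 probes. On the probe in the transcript (chromosome 15, 81679488 to 81679547 of mm9) the level was 1.69 and 1.76 without serum, 2.20, 1.93 and 2.20 with serum, and 1.93, 2.36 and 1.91 with cordycepin. The arrays without serum lay below all the others, as groups this small can without a change, and Tob2 was not called in any comparison. The change with serum was 0.38 ± 0.17 (adjusted p = 0.499) and that with cordycepin −0.04 ± 0.15 (adjusted p = 0.866, 95% confidence interval −0.39 to 0.31). No array measured the other Tob2 probe well above background. A stretch of 53 of its 60 bases lies from 250 to 198 bases before the RefSeq start of Tob2, outside the annotated transcript.

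Btg3, the remaining member, also known as ANA, had a level of 3.00 on each of the 2 arrays without serum, 3.10, 3.14 and 3.23 with serum, and 3.12, 2.89 and 3.09 with cordycepin. The serum arrays lay above those without serum, and the cordycepin arrays overlapped with both. Groups this small can separate without a change, and Btg3 was not called in any comparison. Its log2 fold change was 0.16 ± 0.12 with serum (adjusted p = 0.918, 95% confidence interval −0.12 to 0.43) and −0.12 ± 0.11 with cordycepin (adjusted p = 0.463, −0.37 to 0.12). The probe matches both Btg3, a gene on chromosome 16, and a transcribed pseudogene, and the files place it on chromosome 17 at 50839065 to 50839124 of mm9. The shares of both transcripts in its signal were not tested.

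Among relatives outside the 5 members, Btg4, which acts in oocytes, and the X-linked Btg1-ps1 were not well above background on any of the 8 arrays. Btg1-ps2, also X-linked and now named Btg1c, was measured on all arrays and had a log2 fold change of −0.39 ± 0.15 with cordycepin (adjusted p = 0.108).

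The partners of the family were measured beside it. None of 12 CCR4-NOT subunits was called with cordycepin or with serum in limma, with 2 and 0 at an unadjusted p under 0.05. Of all probes, 10.5% were called with cordycepin and 1.73% with serum, so that lists this short can hold no called gene without being spared. The median log2 fold changes were 0.04 and −0.02. The deadenylase Cnot7, which binds the Btg and Tob domain, was at 0.04 ± 0.16 with cordycepin (adjusted p = 0.877), and its paralogue Cnot8 at 0.13 ± 0.11 (adjusted p = 0.438). Cnot11 was at −0.50 ± 0.14 (adjusted p = 0.0361), under the minimum fold change.

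Of 7 genes for poly(A) binding proteins, their partners and other deadenylases, none was called with cordycepin, where 10.5% of all probes were. In this list 1 gene was at an unadjusted p under 0.05. Pabpc1, the main cytoplasmic poly(A) binding protein and the partner of Tob1, was at 0.01 ± 0.12 with cordycepin (adjusted p = 0.965). None of 8 other partners was called with cordycepin, against the same share of all probes, with 2 at an unadjusted p under 0.05. Prmt1, bound by Btg1 and Btg2, was at 0.25 ± 0.18 (adjusted p = 0.373). After serum neither list had a called gene, where 1.73% of all probes were called, or one at an unadjusted p under 0.05.

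Genes of the G1 phase, which the family is known to restrain, did not pass the call either. Of the 10 tested of 11, none was called with cordycepin or with serum, where 10.5% and 1.73% of all probes were. In each comparison 1 was at an unadjusted p under 0.05. Cyclin D1, Ccnd1, a target of Btg2 repression, was at −0.15 ± 0.15 with serum (adjusted p = 0.998) and at 0.16 ± 0.13 with cordycepin (adjusted p = 0.424).

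Btg2 is also a target of p53, and Btg1 of FoxO factors. Of 13 p53 targets tested of 14, 1 was called lower with cordycepin, where 2.87% of all probes were. It was the polo-like kinase gene Plk2, at −1.62 ± 0.17 (adjusted p = 0.000324). With serum 1 was called higher, where 0.849% of all probes were, the BH3-only gene Pmaip1, at 1.51 ± 0.21 (adjusted p = 0.0118). Pmaip1 was not called with spike-in centring or normexp background correction. The median of the list with cordycepin was −0.21. The cyclin-dependent kinase inhibitor gene Cdkn1a was at 0.59 ± 0.19 with serum (adjusted p = 0.241) and −0.48 ± 0.17 with cordycepin (adjusted p = 0.0909).

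Against no serum, 2 of the 13 p53 targets were called lower on the cordycepin arrays, where 2.99% of all probes were, the BH3-only gene Bbc3 at −1.48 ± 0.22 (adjusted p = 0.00284) and Gadd45a at −1.03 ± 0.27 (adjusted p = 0.0405). Gadd45a was not called with spike-in centring or normexp background correction. Of 8 FoxO targets, 1 was called lower with cordycepin, where 2.87% of all probes were. It was the transcription factor Klf2, at −1.72 ± 0.23 (adjusted p = 0.00113), and the median of the list was −0.02. The transcriptional repressor gene Bcl6 was at −0.95 ± 0.13 (adjusted p = 0.00128), just under the minimum fold change. After serum none of the 8 was called in limma, where 1.73% of all probes were. Of the 8, 4 were at an unadjusted p under 0.05, and log2 fold changes lay from −1.77 to 1.22. With normexp background correction 1 was called higher after serum, and with spike-in centring 1 lower.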

How the data were processed

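The files deposited by the authors hold the scanner intensity of each spot of 1-colour Agilent arrays, extracted with Feature Extraction 10.7.3.1 per the file headers, which subtracts background to give a processed signal and marks outlier spots and spots well above background. Gene names and mm9 probe positions are those of the array design.

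The log2 processed signal of each array was taken relative to its 75th percentile over non-control spots. Outlier spots were left out and spots of a probe averaged. Testing was limited to probes marked well above background throughout at least 1 of the 3 groups. Groups were compared with limma 3.58.1 in R 4.3.3 on all 8 arrays with 1 mean per group and Benjamini-Hochberg adjustment over 30870 probes. The script was tested on simulated data. The number of arrays limits the precision, and a change shared by most transcripts is not seen on this scale. A bound ("at least") compares the mean log2 level of the bright group with a floor for the dim one. The floor of an array is its dimmest probe well above background, or the probe itself where that is brighter, and floors were averaged over the dim arrays.

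The members and lists were chosen with earlier results of these data known. The genes named were every member with all its probes and Btg4, the 3 nearest profiles of each member's brightest probe (1 of them is not reported here), the called genes of each list (up to 3 in each direction), Cnot7, Cnot8, Pabpc1, Prmt1, Ccnd1, Cdkn1a and Fos, and lincRNA probes within 50 kb. Btg1-ps1, Btg1-ps2, Cnot11, Bcl6, Ifrd1 and the list markers given as examples were added after their values were seen. Motifs were counted in promoter windows from RefSeq, matched to the members by symbol for 5 of 5 genes. Alternatives were normexp background correction with an offset of 50, quantile normalisation, spike-in centring, both other filters on dim probes, no minimum fold change, only the groups compared, the replicate block, the slide row as a block, the mean of a gene's probes and each array left out in turn.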

Additional observations from a re-analysis of the deposited data

How the results depend on the processing

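Btg2 kept its direction and its call with cordycepin (−3.21 to −2.93) and with serum (3.06 to 3.71) under all 18 alternatives. The distal Btg1 probe kept its call with cordycepin under all 18 (1.76 to 2.29). Dropping the minimum fold change could not remove a call. Taking the mean of a gene's probes left the values of Btg2 and of the distal probe as they were. With no minimum fold change 2 of the 5 members were called with cordycepin, Btg2 and Btg1 on its proximal probe. Both were lower, where 7.36% of all probes were called lower in this way. The members that changed sign were not called before or after. Taking the mean of the probes turned Btg1 to 0.85 with cordycepin, −0.093 with serum and 0.76 against no serum. The first and last of these had adjusted p-values of 0.00462 and 0.0175 in limma, under the minimum fold change. Spike-in centring, which moved the median of all probes to −0.39 with serum and −0.30 against no serum, turned Btg1 to −0.25, Btg3 to −0.21 and Tob1 to −0.041 with serum, and Btg2 to −0.0053, Btg3 to −0.35, Tob1 to −0.16 and Tob2 to −0.050 against no serum. Quantile normalisation turned Btg3 to −0.0041 against no serum. With each array left out in turn, Tob2 ranged from −0.19 to 0.035 with cordycepin (above 0 without cordycepin replicate 1, 0.022, and replicate 3), Tob1 from −0.26 to 0.041 (above 0 without serum replicate 3), and Btg3 against no serum from −0.0079 (without cordycepin replicate 1) to 0.11. The cause was not tested.

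Of all probes, 3244 were called with cordycepin, against 1321 with normexp, 2089 with spike-in centring, 1810 with probes above background on all arrays and 5977 with no minimum fold change. Against no serum 2924 were called, against 1401, 1519, 1687 and 4667. With serum 533 were called, against 230 with normexp, 238 with spike-in centring, 221 with no filter, 346 with only the groups compared, and 287 and 265 without the first and the second array without serum. The split into higher and lower calls was 2358 and 886 with cordycepin, against 1951 and 1286 with quantile normalisation. With serum it was 262 and 271, against 56 and 182 with spike-in centring and 171 and 59 with normexp. Against no serum it was 2001 and 923, against 857 and 662 with spike-in centring and 1737 and 1237 with quantile normalisation. Samples sharing a replicate number did not deviate together (r from −0.17 to 0.23), and the replicate block gave Btg2 −3.05 with cordycepin and 3.36 with serum, and changed no call of a member.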
